A study of Mus musculus with 8 samples.

Results

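The 8 RNA sequencing libraries of mouse embryonic heart cells fall into 2 sets of 4, named in the column header of each count table, and set 2 is compared here with set 1. Set 1 holds replicates 1 and 3 of each treatment, and set 2 holds replicates 2 and 4. All 8 libraries are members, 4 a side, with 2 of each treatment in each set, so treatment was a term in the model and its own effect is not described. What a set was (a litter, a preparation or a sequencing run) is not stated.

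Both sets come from C57/Bl6 mouse hearts at embryonic day 12.5, with male and female embryos pooled. In each set 2 libraries are controls and 2 were treated with simvastatin, a statin, at 10 µM. The labels name the samples as cardiomyocytes and describe RNA from dissected hearts, and they do not say how cells were separated or kept. Nothing in the labels places replicates in separate litters or preparations. The p-values therefore describe the spread among these libraries, part of which may be technical.

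The embryonic heart holds contracting cardiomyocytes, built around the sarcomere, beside fibroblast-like mesenchyme, endothelial and endocardial cells, epicardium, macrophages and primitive red blood cells. Preparations of such cells can differ in cell makeup and in programmes that respond to nutrients, time and handling, among them sterol synthesis, the stress-activated transcription factor NRF2, immediate early genes and the circadian clock. In bulk RNA, fewer cells of a type and less RNA per cell cannot be told apart.

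The markers of heart muscle were abundant in every library. The summed level of 14 core cardiomyocyte genes ran from 64360 to 81310 CPM (the count of a gene relative to the scaled library total). Fibroblast and mesenchyme markers summed to between 1326 and 2695 CPM, endothelial markers to between 319 and 513, macrophage markers to between 335 and 482, and hepatocyte markers to between 6.09 and 24.9. Markers of fibroblasts, endothelial cells and macrophages were thus present in every library. Of the hepatocyte markers 2 of 11 were at 0 in all 8 libraries, and of the foregut and lung epithelium markers likewise 2 of 11. On each of these 2 lists only 2 of 11 passed the filter on low counts. Trf (transferrin), at 4.53 to 23.25 CPM, made up most of the hepatocyte sum in every library.

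Totals ran from 30474586 to 35215640 counts a library. Among 10301 genes with a mean of at least 5 CPM, the 2 set 1 controls (replicates 1 and 3) differed from each other most, with a root mean square log2 difference of 0.484, against 0.231 to 0.298 for the other same-set pairs. Control replicate 2 had higher sterol synthesis genes than the other 3 controls, with the values given beside those genes. In a principal component analysis within treatment, the first component (38.5% of the variance) separated the simvastatin libraries by set, at 24 and 21.5 in set 1 and -19.5 and -26 in set 2. It did not separate the controls, at -31.1 and 21.8 in set 1 and 2 and 7.2 in set 2. On the second component (27.3%), set 1 controls scored 22 and 23.9 and set 2 controls -21 and -25, while the simvastatin libraries of the 2 sets overlapped. Values without control replicate 1 or 2 are given beside the results that rest on them.

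Across 16126 expressed genes, 0 passed an adjusted p of 0.05 in edgeR's quasi-likelihood test (0% called), and the smallest adjusted p was 0.147, shared by 211 genes. At an unadjusted p under 0.05 there were 2835 genes (17.6%), of which 1424 (8.83%) were higher in set 2 and 1411 (8.75%) lower. This split depended on scaling: library totals alone gave 966 higher and 1869 lower, and an offset for GC content 1706 higher and 1093 lower. DESeq2's Wald test called 523 genes (3.24%), 267 higher (1.66%) and 256 lower (1.59%), and limma-voom called 0. Without control replicate 1, edgeR called 853 of 16278 genes (5.24%), 484 higher (2.97%) and 369 lower (2.27%), and leaving out any other single library gave 0. Of the 853, 347 were also among DESeq2's calls. In the 4 control libraries alone 0 of 16411 genes passed (0%, with 2071 or 12.6% at an unadjusted p under 0.05), and in the 4 simvastatin libraries alone 802 of 16171 passed (4.96%), 189 higher (1.17%) and 613 lower (3.79%) in set 2.

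A second description counts genes whose sets did not overlap, that is, both set 2 libraries on the same side of both set 1 libraries in each treatment and in the same direction in both. There were 1384 such genes higher in set 2 (8.58%) and 1222 lower (7.58%). Since no gene passed the main test, the genes below are described by their values. The genes with the largest non-overlapping differences were chosen after their values were seen, and the members of pathways are the ones with the smallest p on each list.

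Rspo3, a secreted protein that strengthens Wnt signalling, had the smallest p of all genes. It lies on chromosome 10 (29452416 to 29535867, minus strand, GRCm38). Its level was 9.40 and 11.4 CPM in the set 1 controls and 23.3 and 22.2 CPM in the set 2 controls. In the simvastatin libraries it was 11.5 and 12.6 CPM in set 1 and 21.1 and 26.1 CPM in set 2. Set 2 was higher in both treatments with no overlap, about 2.07-fold over all libraries (log2 difference 1.05 ± 0.13 SE, edgeR adjusted p = 0.147). The log2 difference was 1.13 in the control libraries alone and 0.996 in the simvastatin libraries alone. The difference passed in the simvastatin libraries alone (adjusted p = 0.0086), without control replicate 1 (adjusted p = 0.02) and in DESeq2 (adjusted p = 1.2e-09). It did not pass in the control libraries alone (edgeR adjusted p = 0.276) or without control replicate 2 (edgeR adjusted p = 0.305). Of 30 alternative fits it passed in 6.

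H19, an imprinted noncoding RNA of fetal tissue, went the other way. It lies on chromosome 7 (142575529 to 142578143, minus strand, GRCm38). Its controls read 725 and 833 CPM in set 1 and 470 and 437 CPM in set 2. Its simvastatin libraries read 754 and 584 CPM in set 1 and 424 and 462 CPM in set 2. All 4 set 2 libraries were below all 4 set 1 libraries (log2 difference -0.69 ± 0.10 SE, edgeR adjusted p = 0.147).

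The plot of 9 genes by library shows these and other leading genes. Bche (butyrylcholinesterase) was 41.6 and 22.8 CPM in set 1 controls, 63.6 and 64.5 in set 2 controls, 34.7 and 42.2 in set 1 simvastatin libraries and 71.8 and 68.8 in set 2 simvastatin libraries. Ndufa4l2, a mitochondrial protein known as a hypoxia-responsive gene, had the most negative difference among annotated genes with no overlap and a mean of at least 5 CPM. Its controls read 20.8 and 24.9 CPM in set 1 and 7.37 and 3.14 CPM in set 2. Its simvastatin libraries read 29.4 and 21.6 CPM in set 1 and 1.90 and 12.9 CPM in set 2, so that set 1 was 3.87-fold higher but set 2 varied widely (log2 difference -1.95 ± 0.49 SE).

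**Figure D1:**
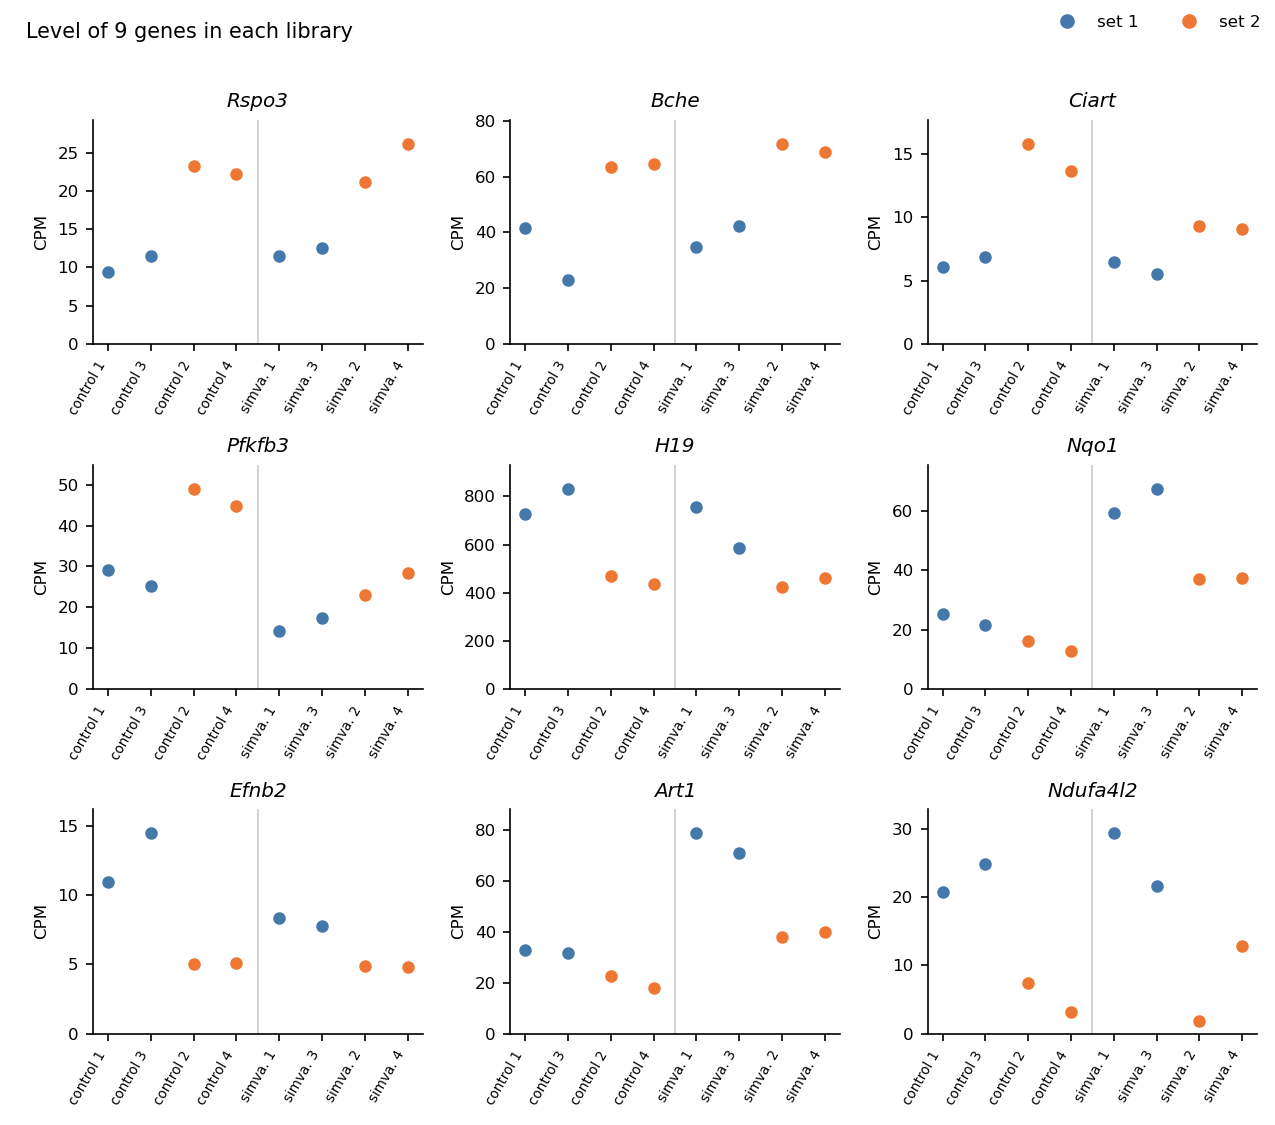
Each panel gives the CPM of 1 gene (vertical axis, starting at 0) in each of the 8 libraries, set 1 in blue and set 2 in orange, controls left of the line and simvastatin libraries right of it. Within each treatment both orange points lie above both blue ones for Rspo3, Bche, Ciart and Pfkfb3, and below them for H19, Nqo1, Efnb2, Art1 and Ndufa4l2.

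Other leading genes of set 2 included Scd2, a fatty acid desaturase (log2 difference 0.96 ± 0.21 SE), Ano3, a membrane protein of the anoctamin family (0.96 ± 0.17), and Lrrn3, a neuronal leucine-rich repeat protein (0.98 ± 0.23). Ppp1r3g, a glycogen-targeting subunit of protein phosphatase, gave 0.999 ± 0.24, at a level of only 2.65 to 21.9 CPM. On the set 1 side, Cox4i2, a cytochrome c oxidase subunit isoform, gave -1.14 ± 0.32 and Efnb2, the ephrin ligand of arterial endothelium and sprouting vessels, -1.03 ± 0.17. Trf (transferrin) was -1.03 ± 0.27 in log2, Igfbp6 (an IGF-binding protein) -0.99 ± 0.19, Adamts4 (a matrix protease) -0.96 ± 0.16 and Art1 (an ADP-ribosyltransferase of muscle) -0.80 ± 0.11. For Trf the log2 difference was -1.65 in controls alone and -0.40 in simvastatin libraries alone. Ptgs1 (cyclooxygenase 1) read -0.63 ± 0.09. Cdr2l, Tnfaip2 and Cldn3 were lower in set 2 by 0.92 to 1.06 on the log2 scale.

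The set difference followed gene sequence composition. Its Spearman correlation across 16087 genes with the GC content of their exons was -0.30, and across 16126 genes with exon length 0.19. These are correlations across genes, which share libraries and are not independent, so no p is given. In the lowest of 5 bins of genes by GC content, 27.5% to 43.8% GC, the median log2 difference was 0.11, and 15% of genes were higher in set 2 with no overlap against 3.35% lower. In the highest bin, 55.2% to 73.7% GC, the median was -0.17, with 2.32% higher and 14.6% lower. The direction of the trend was the same in the control libraries alone (0.09 to -0.10) and in the simvastatin libraries alone (0.19 to -0.16). The shortest of 5 bins of genes by exon length had a median of -0.11 and the longest 0.07. The mean GC content over all counts was 49.9% to 50.1% in set 2 and 50.0% to 50.5% in set 1. Whether GC content, length or a property that goes with them accounts for the gene group differences below was not tested. List medians refitted with an offset for GC content or for length are given beside the main groups.

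**Figure D2:**
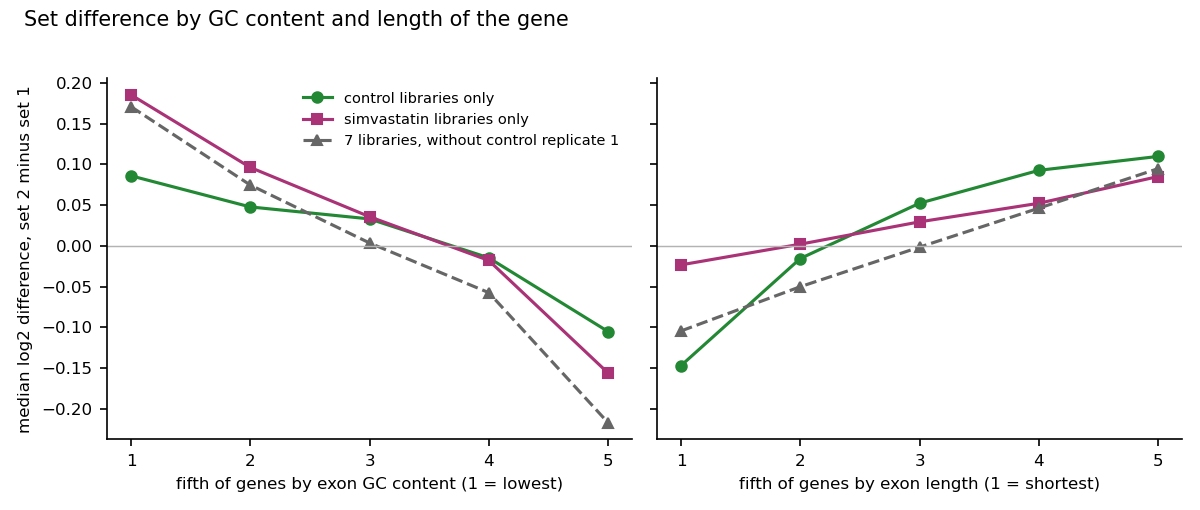
The median log2 difference, set 2 minus set 1 (vertical axis), is drawn for 5 equal bins of genes with a mean of at least 1 CPM, ordered by exon GC content (left) or exon length (right), for the control libraries, for the simvastatin libraries and for 7 libraries without control replicate 1. All 3 lines fall with GC content and rise with length.

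Cytosolic ribosomal proteins were the group with the most uniform difference. Of 84 genes 82 were tested, and all 82 had a lower estimate in set 2, from -0.44 to -0.05, with a median of -0.26 against -0.02 over all genes tested. An unadjusted p under 0.05 was reached by 56 (background lower 8.75%), and 41, or 50%, had no overlap (background lower 7.58%), with 0 passing the adjusted threshold. The median was -0.36 in control libraries and -0.12 in simvastatin libraries, -0.22 with the GC offset and -0.18 with the length offset. The 56 genes at an unadjusted p under 0.05 became 37 with the GC offset and 28 with the length offset, all lower. The adjusted threshold was passed by 0 of 82 without control replicate 1 and by 0 in the simvastatin libraries alone. With DESeq2 1 gene passed, lower in set 2. Ribosomal protein genes took 1.34% to 1.93% of counts per library. That share was 1.85% and 1.93% in set 1 controls and 1.52% and 1.34% in set 2 controls, and 1.74% and 1.604% in set 1 simvastatin libraries and 1.39% and 1.56% in set 2 ones. The exact permutation test of this share within treatment gave two-sided p = 0.0556, the smallest that 36 arrangements can give, and an adjusted p of 0.153 over 11 library measures. Rps26, a protein of the small subunit, read 114 and 114 CPM against 88.5 and 75.9 in controls and 108 and 102 against 81.2 and 91.1 in simvastatin libraries (set 1 named first). Rpl37a and Rpl41, small proteins of the large subunit, gave log2 differences of -0.36 ± 0.09 SE and -0.32 ± 0.08 SE. Ribosomal protein genes share reads with processed pseudogenes, so their exact levels are uncertain. Mitochondrial ribosomal proteins did not share this pattern, with a median of -0.06 over 75 genes.

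**Figure D3:**
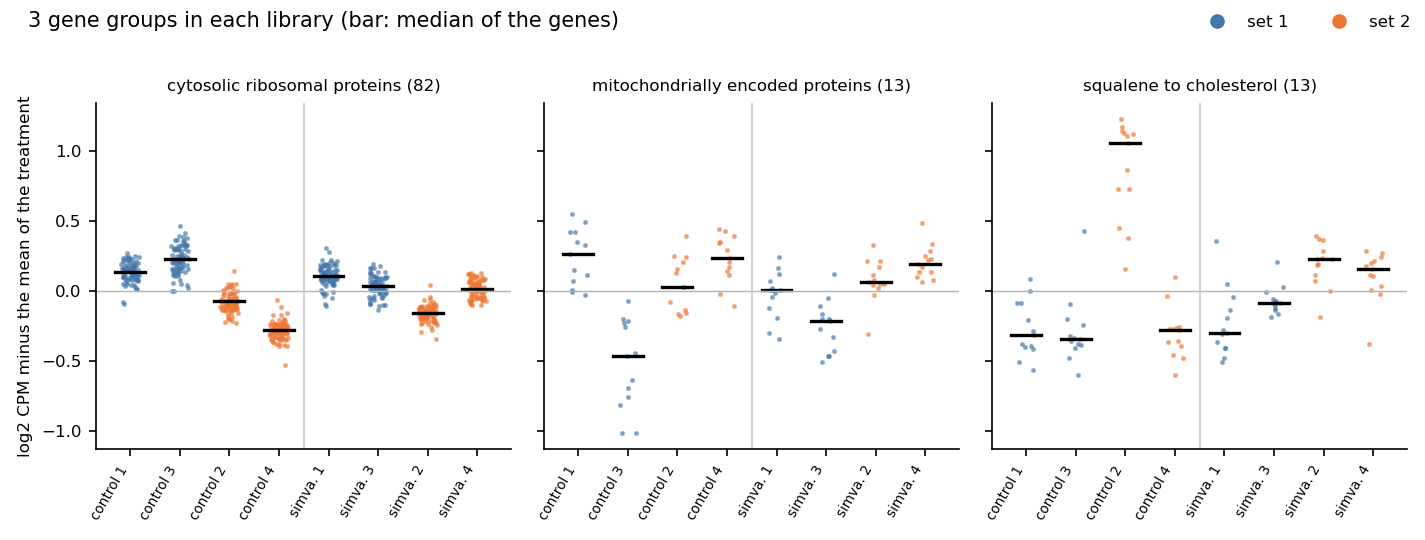
Points are genes and black bars their medians, for 3 gene groups (numbers of genes in parentheses), as log2 CPM minus the mean of the same treatment (vertical axis) in each library. Ribosomal protein medians are 0.14, 0.23, 0.11 and 0.04 in set 1 and -0.08, -0.28, -0.15 and 0.02 in set 2. The group of cholesterol enzymes is high in control replicate 2, with a median of 1.06.

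Mitochondrially encoded subunits of the respiratory chain, transcribed from the mitochondrial genome, had higher estimates in set 2 for 11 of 13 genes. Their median was 0.29, or 0.20 with the GC offset and 0.40 with the length offset. An unadjusted p under 0.05 was reached by 3 of 13 (background higher 8.83%), and 3 were higher with no overlap (background higher 8.58%). As a group the sets overlapped in controls: the summed level was 20170 and 15550 CPM in set 1 and 19340 and 24800 in set 2. In simvastatin libraries the sum was 18240 and 16900 CPM in set 1 and 21090 and 21940 in set 2. The share of counts from the mitochondrial genome gave an exact permutation p of 0.167. mt-Cytb, a subunit of complex III, read 5015 and 3751 CPM against 5202 and 6942 in controls and 4420 and 4198 against 5876 and 6025 in simvastatin libraries. For this gene the sets did not overlap, though control replicate 1 of set 1 was close to control replicate 2 of set 2. Control replicate 1 had the highest sum of the set 1 libraries, so leaving it out raises the difference. Without control replicate 1 the median of the 13 was 0.47, and 4 passed the adjusted threshold, all higher (background higher 2.97%). With any other single library left out, 0 genes of any group passed. The nuclear subunits of oxidative phosphorylation had no common direction, with a median of -0.07 over 80 genes, 7 higher (8.75%, background 8.58%) and 11 lower (13.8%, background 7.58%) with no overlap. Sdha, the catalytic subunit of succinate dehydrogenase, was higher in set 2 by 0.36 ± 0.07 SE, with 1233 and 1270 against 1594 and 1663 CPM in controls. Ndufs1, a core subunit of complex I, was higher by 0.44 ± 0.09 SE. Cox8b, a muscle isoform of cytochrome c oxidase, was lower by 0.48 on the log2 scale. Ppargc1a, a coactivator of mitochondrial genes, read 77.2 and 60.6 against 89.6 and 104 CPM in controls and 51.4 and 64.7 against 84.8 and 75.6 in simvastatin libraries. Hadhb, which takes part in fatty acid oxidation, was higher in set 2 by 0.34 ± 0.07 SE.

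Enzymes of sterol synthesis, which make cholesterol and isoprenoids from acetyl-CoA and are controlled by SREBP2, had higher estimates in set 2. The medians were 0.55 for 9 mevalonate and isoprenoid enzymes, 0.62 for 13 enzymes from squalene to cholesterol and 0.42 for 15 fatty acid synthesis genes. An unadjusted p under 0.05 was found for 3, 8 and 8 of them (background higher 8.83%), and 2, 3 and 4 were higher with no overlap (background higher 8.58%). With the GC offset the medians were 0.59, 0.58 and 0.47, and with the length offset 0.63, 0.57 and 0.42. These values rested partly on control replicate 2. Hmgcs1, the first committed enzyme of the pathway, read 342 and 257 CPM in set 1 controls and 1203 and 377 in set 2 controls. In the simvastatin libraries it read 1108 and 1442 CPM in set 1 and 2037 and 2006 in set 2. Control replicate 2 was the high library, and replicate 4 of the same set lay close to the set 1 controls. Without control replicate 2 the medians were 0.14, 0.29 and 0.26, and the Hmgcs1 difference was 0.54 in place of 1.03. In the simvastatin libraries alone the medians were 0.27, 0.47 and 0.16. Without control replicate 1, 0, 0 and 2 genes of the 3 lists passed the adjusted threshold, the 2 being higher (background higher 2.97%).

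Among single genes of the pathway, Idi1, which makes dimethylallyl diphosphate, had 59.8 and 40.5 against 196 and 60.04 CPM in controls. Cyp51, a demethylase of lanosterol, had 236 and 205 against 624 and 224 CPM, and Msmo1, a later demethylase, 276 and 259 against 753 and 262. Scd2, the desaturase named above, had no overlap between sets, at 889 and 663 against 2263 and 1188 CPM in controls and 1360 and 1946 against 2933 and 2666 in simvastatin libraries. Elovl5, an elongase of polyunsaturated fatty acids, was higher in set 2 by 0.51 ± 0.12 SE.

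Genes of the contractile apparatus had estimates in both directions, with a median of 0.09 over 28 sarcomere genes (0.15 with the GC offset and 0.14 with the length offset). At an unadjusted p under 0.05, 8 were higher (background 8.83%) and 2 lower (background 8.75%). With no overlap, 7 (25%) were higher against a background of 8.58%, and 2 (7.14%) lower against 7.58%. Mybpc3 (cardiac myosin-binding protein C) read 4044 and 3628 against 5661 and 5693 CPM in controls and 4249 and 4991 against 5778 and 5337 in simvastatin libraries. Actn2 (the actin crosslinker of the Z disc) read 4068 and 3999 against 5061 and 5391 CPM in controls, and 3490 and 3608 against 4626 and 4168. Myom1, of the M band, was higher by 0.39 ± 0.08 SE and Nebl, of the Z disc, by 0.60 ± 0.15 SE. Without control replicate 1, 4 of 28 passed the adjusted threshold, all higher (background higher 2.97%), and 0 with any other single library left out. Tnnt2 (cardiac troponin T), in contrast, had a log2 difference of -0.01 ± 0.07 SE. The summed level of the 14 core cardiomyocyte markers was 68840 and 64360 CPM in set 1 controls and 78530 and 79300 in set 2 controls, and 73220 and 76040 against 81310 and 78810 in simvastatin libraries. Their median log2 difference was only 0.004, with 7 estimates above 0 and 7 below. At an unadjusted p under 0.05, 5 were higher and 1 lower. In controls Myh6, 1 of the 14, had a mean of 15180 CPM in set 1 and 22080 CPM in set 2.

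Other heart muscle genes went in both directions. Myh6, the alpha myosin heavy chain, read 16760 and 13600 against 20300 and 23860 CPM in controls. In the simvastatin libraries it read 15690 and 18500 against 23560 and 18360 CPM, where the sets overlapped. Myl7, the atrial light chain, was lower in set 2 by 0.30 on the log2 scale with no overlap, and Ckm, the muscle creatine kinase, by 0.50. Pln (phospholamban) was higher by 0.32 ± 0.09 SE and Gja1 (connexin 43) by 0.41 ± 0.11 SE. Hcn4, a pacemaker channel, read 13.9 and 18.3 against 8.14 and 7.70 CPM in controls and 22.6 and 14.4 against 10.7 and 12.7 in simvastatin libraries. Among cardiac transcription factors, Tbx20 read 223 and 136 against 264 and 276 CPM in controls and 145 and 211 against 296 and 294 in simvastatin libraries. Prox1 was higher by 0.53 ± 0.16 SE. Irx3, at 1.15 to 4.32 CPM, was lower with no overlap. The natriuretic peptide genes Nppa (-0.16 ± 0.08 SE) and Nppb (0.01 ± 0.13 SE) had estimates within about 2 standard errors of 0, and so had Myh7 (0.01 ± 0.20 SE), for which the 2 treatments went in opposite directions.

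Red blood cell transcripts were rare and lower in set 2. Haemoglobin genes took 0.00141% and 0.00136% of counts in set 1 controls and 0.00082% and 0.00106% in set 2 controls. With simvastatin they took 0.00418% and 0.00341% in set 1 and 0.00167% and 0.00184% in set 2. The sets did not overlap (exact permutation p = 0.0556, adjusted p = 0.153). Hba-x, an embryonic alpha globin, read 2.65 and 3.72 against 1.09 and 2.04 CPM in controls and 6.71 and 5.19 against 2.22 and 1.71 in simvastatin libraries. Hbb-y, an embryonic beta globin, was lower by 0.76 on the log2 scale, and Hba-a1, which has a near-identical copy and is therefore uncertain, by 0.78. Tfrc, the transferrin receptor, sat on the same list but is expressed by most cells. It was higher in set 2, at 275 and 162 against 349 and 370 CPM in controls and 304 and 383 against 510 and 548 in simvastatin libraries.

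Vessel lining markers had lower estimates in set 2. The median was -0.35 over 14 endothelial genes and -0.35 over 9 endocardial genes, and an unadjusted p under 0.05 was reached by 3 and 4 of them, all lower (background lower 8.75%). The endothelial median was -0.12 over the 11 genes with at least 1 CPM in 4 libraries. With the GC offset the 2 medians were -0.27 and -0.31, and with the length offset -0.32 and -0.40. Esam, a junction protein, read 42.0 and 37.9 against 34.4 and 27.4 CPM in controls and 37.3 and 34.0 against 26.5 and 27.5 in simvastatin libraries. Egfl7, a secreted endothelial protein, was lower by 0.42 on the log2 scale and Plvap, of fenestrae and caveolae, by 0.85 at 1.58 to 4.24 CPM. Pecam1, the common endothelial marker, read 60.6 and 41.4 against 58.9 and 58.2 CPM in controls, where the sets overlapped. With simvastatin it read 65.8 and 67.6 against 53.7 and 46.5 CPM, lower in set 2 with no overlap. The summed level of all 14 endothelial markers overlapped between sets. The lymphatic list had 5 tested members, among them Mmrn1, at only 0.355 to 3.59 CPM, with a log2 difference of 1.87 ± 0.40 SE. Csf1r, the receptor that marks macrophages, read 16.7 to 21.9 CPM, with a difference of 0.14 ± 0.12 SE, and 0 of 14 macrophage genes had an unadjusted p under 0.05. Of 22 cell type lists, the summed level did not overlap and was higher in set 2 for 4 (core and compact wall cardiomyocyte, lymphatic endothelial, erythroid) and lower for 3 (endocardial, hepatocyte, skeletal muscle). Among single genes tested, 16.2% had no overlap between sets. The erythroid sum was carried by Tfrc, not by globins. Other sums also rested mainly on 1 gene each. In control replicate 1, Ckm made up 766 of 783 CPM for skeletal muscle and Trf 18.9 of 20.9 CPM for hepatocytes. Prox1, also a cardiac transcription factor, made up 69.9 of 104 CPM for the lymphatic list. These sums therefore do not measure those cell types as a whole. The core cardiomyocyte sum was higher in set 2 although 7 of its genes had estimates above 0 and 7 below.

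Several groups of stress and signalling genes had lower estimates in set 2. Of 22 NRF2 targets, which encode enzymes of detoxification and redox balance, 11 had an unadjusted p under 0.05 and were lower (background lower 8.75%), 0 were higher, and 7 were lower with no overlap (background lower 7.58%). The median was -0.34, or -0.31 with the GC offset and -0.28 with the length offset. Nqo1, a quinone reductase (chromosome 8, 107388225 to 107403206, minus strand, GRCm38), read 25.2 and 21.5 against 16.2 and 12.6 CPM in controls and 59.3 and 67.6 against 37.2 and 37.2 in simvastatin libraries. The sets did not overlap (log2 difference -0.73 ± 0.11 SE, edgeR adjusted p = 0.147). The edgeR adjusted p was 0.023 without control replicate 1 and 0.305 without control replicate 2. Osgin1, an oxidative stress-induced growth inhibitor, was lower by 0.998 on the log2 scale at 2.07 to 6.89 CPM, and Gsta3, a glutathione transferase, by 1.21 at 0.485 to 2.87 CPM. Of the 22 genes, 3 passed the adjusted threshold without control replicate 1, all lower (background lower 2.27%), and 0 with any other single library left out.

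Immediate early genes, which are induced within minutes of a stimulus, gave 10 of 28 lower at an unadjusted p under 0.05 (background lower 8.75%), 0 higher and 6 lower with no overlap (background lower 7.58%). Their median was -0.44, or -0.27 with the GC offset and -0.44 with the length offset. Klf4, a zinc finger factor, read 4.87 and 6.18 against 3.02 and 2.52 CPM in controls and 34.6 and 23.1 against 15.9 and 16.7 in simvastatin libraries. Its relative Klf2 had a log2 difference of -1.03 ± 0.33 SE. Rhob, a small GTPase that is on none of the lists, gave -0.95 ± 0.18 SE. Dusp5, a phosphatase of ERK, was lower by 1.39 on the log2 scale and Fosl1, an AP-1 subunit, by 0.75. On the NF-kB and chemokine list Nfkbia, the inhibitor of NF-kB, read 106 and 80.1 against 61.0 and 54.5 CPM in controls and 106 and 138 against 69.9 and 76.8 in simvastatin libraries.

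Targets of BMP signalling, a pathway of heart and cushion development, had a median of -0.48 over 14 genes (-0.36 with the GC offset and -0.40 with the length offset). At an unadjusted p under 0.05, 5 were lower (background 8.75%) and 1 higher (background 8.83%). Id2, an inhibitor of helix-loop-helix factors, read 160 and 156 against 121 and 114 CPM in controls and 269 and 292 against 184 and 215 in simvastatin libraries. Id3 and Id1 were lower by 0.51 and 0.56, and Smad7, an inhibitory SMAD, by 0.77. For Id3 the log2 difference was -0.79 in controls alone and -0.19 in simvastatin libraries alone. Of 17 Wnt pathway genes, 4 were lower (background 8.75%) and 2 higher (background 8.83%) at an unadjusted p under 0.05. The ligand Wnt2 was lower by 1.11 on the log2 scale and the antagonist Sfrp2, at 0.917 to 3.75 CPM, by 1.19, whereas Rspo3 was higher. Of 20 imprinted and IGF genes, 6 were lower and 2 higher, against the same backgrounds. Grb10, an adaptor that restrains insulin receptor signalling, was higher by 0.45 ± 0.10 SE.

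Genes of the unfolded protein response had a median of 0.12 over 20 genes (0.15 with the GC offset and 0.19 with the length offset). At an unadjusted p under 0.05, 8 were higher (background 8.83%) and 1 lower (background 8.75%), and 9 were higher with no overlap (background 8.58%). Hspa5, the chaperone of the endoplasmic reticulum, read 1860 and 1662 against 2109 and 2129 CPM in controls and 1467 and 1617 against 1924 and 1924 in simvastatin libraries. Sel1l, of the degradation complex, was higher by 0.36 ± 0.08 SE and Pdia4, a disulphide isomerase, by 0.32 ± 0.09 SE. The other stress lists had no common direction. Of 24 genes of the integrated stress response and amino acid synthesis, 5 were higher and 4 lower at an unadjusted p under 0.05 (median -0.01). The backgrounds were 8.83% higher and 8.75% lower. Asns, the asparagine synthetase, was among the higher ones at 0.31 ± 0.07 SE. Of 22 CDK inhibitors and p53 targets, 4 were higher and 6 lower against the same backgrounds (median -0.08). Ccng1 was among the higher ones at 0.44 ± 0.11 SE. The clock-output gene Ciart read 6.04 and 6.87 against 15.8 and 13.7 CPM in controls and 6.46 and 5.52 against 9.30 and 9.02 in simvastatin libraries. Bhlhe40, a clock repressor, read 122 and 96.1 against 234 and 188 CPM in controls and 109 and 103 against 135 and 174. Over the 18 clock genes 4 were higher (background 8.83%) and 3 lower (background 8.75%) at an unadjusted p under 0.05. Pfkfb3, which raises glycolytic flux, was higher in set 2 by 0.75 ± 0.12 SE with no overlap, on a glycolysis list with 7 estimates above 0 and 13 below.

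Mesenchymal and matrix genes differed between sets in a way that depended on treatment. The interaction compares the set difference in simvastatin libraries with that in controls, and it passed for 9 of 16126 genes (0.0558% called), all with values above 0. They were Col3a1, Col8a1 and Col1a2, which are collagen chains, the chemokines Ccl2 and Ccl7, Anxa1 (an annexin), Tcf21 (a transcription factor of epicardium-derived fibroblasts), Acta2 (smooth muscle actin) and Steap4 (a metalloreductase). In controls set 2 was lower for all 9, and in simvastatin libraries set 2 was higher. Wider counts leaned the other way. Before adjustment 697 genes had an interaction p under 0.05 above 0 and 1153 below 0. With DESeq2 150 calls were above 0 and 380 below. The 9 rested on small groups: 0 genes passed when any of control replicates 2 or 4 or any simvastatin library was left out, 316 without control replicate 1 and 1213 without control replicate 3.

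**Figure D4:**
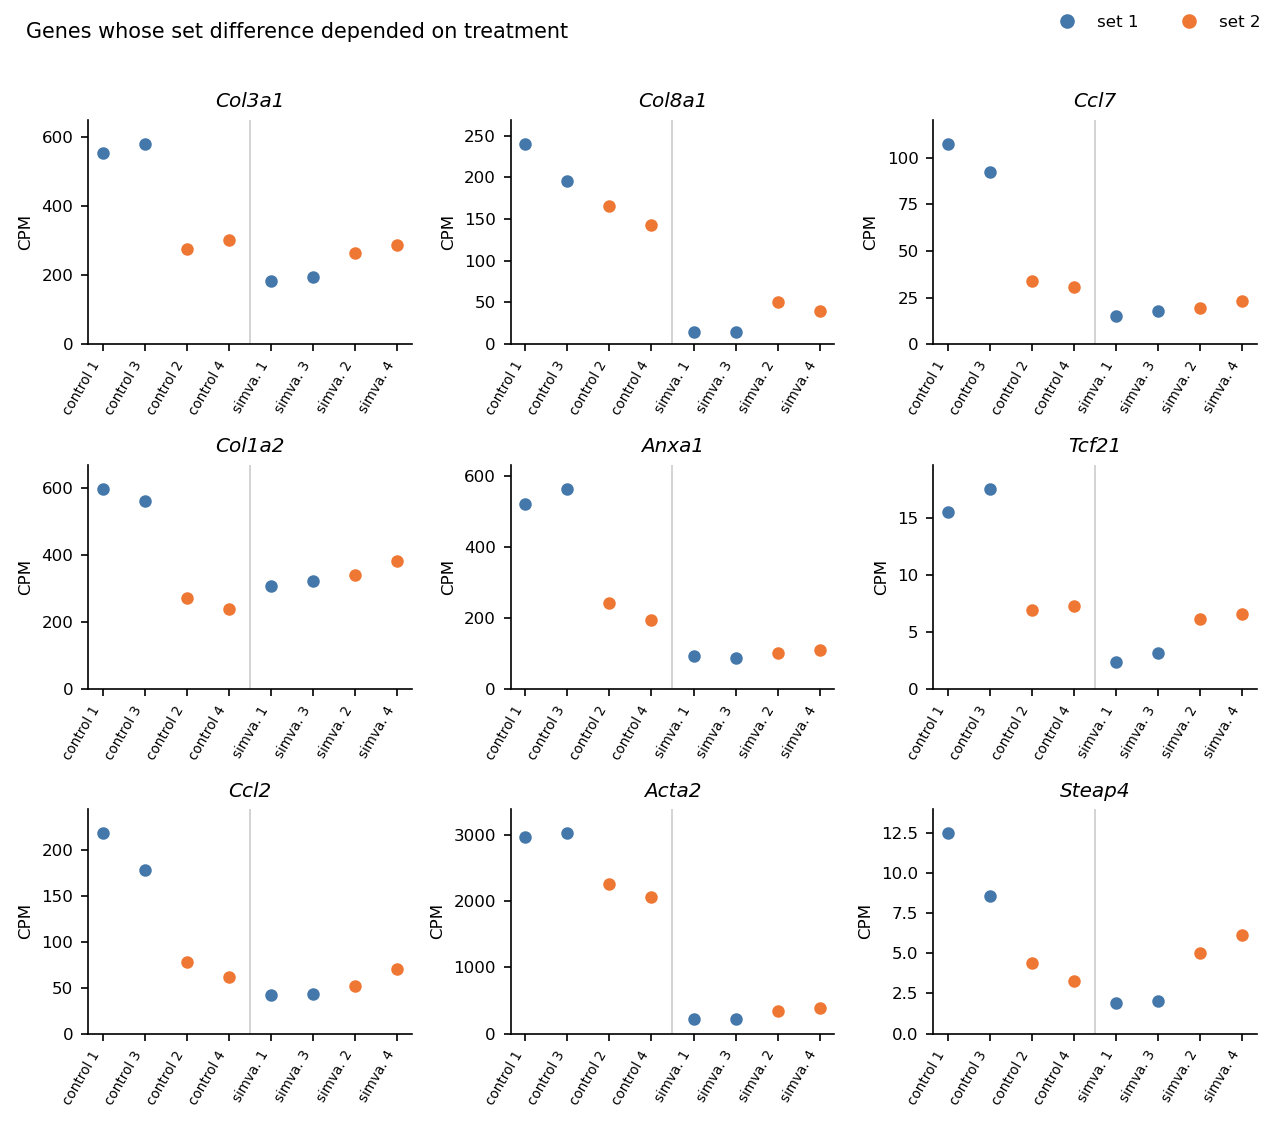
Each panel gives the CPM of 1 gene (vertical axis, starting at 0) in the 8 libraries, set 1 in blue and set 2 in orange, controls left of the line and simvastatin libraries right of it. In all 9 genes set 2 lies below set 1 in controls and above it in simvastatin libraries.

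Col3a1 read 553 and 580 CPM in set 1 controls and 274 and 302 in set 2 controls. Its simvastatin libraries read 182 and 194 CPM in set 1 and 263 and 286 in set 2. The interaction was 1.52 ± 0.15 SE on the log2 scale (edgeR adjusted p = 0.0277). Tcf21, at 15.5 and 17.5 against 6.89 and 7.25 CPM in controls and 2.33 and 3.10 against 6.08 and 6.52 in simvastatin libraries, had an interaction of 2.44 ± 0.29 SE (adjusted p = 0.0351). Steap4, at 12.5 and 8.59 against 4.41 and 3.30 CPM and then 1.92 and 2.03 against 5.01 and 6.12 CPM, had the largest interaction of the 9, 2.94 ± 0.38 SE (adjusted p = 0.0449). Acta2 read 2972 and 3025 against 2263 and 2068 CPM in controls and 215 and 220 against 338 and 389 in simvastatin libraries. Anxa1 had 523 and 566 against 243 and 194 CPM, and 91.5 and 87.5 against 100 and 110. Col8a1, Ccl7, Col1a2 and Ccl2 had interactions of 2.16 ± 0.22 SE, 2.02 ± 0.23 SE, 1.38 ± 0.16 SE and 2.04 ± 0.26 SE.

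The lists of these cells had the same order. Over 12 fibroblast and mesenchyme genes the median set difference was -0.90 in controls and 0.21 in simvastatin libraries, and 10 had an interaction p under 0.05 before adjustment, 8 of them above 0 (11.5% of all genes tested, 4.32% above 0 and 7.15% below 0). The same counts were 18 of 28 for matrix glycoproteins (15 above 0), 11 of 22 for matrix proteases and inhibitors (11 above 0), 12 of 26 for SRF targets and actin cytoskeleton genes (11 above 0) and 10 of 25 for NF-kB and chemokine genes (9 above 0). Some heart muscle and clock lists had such genes only below 0. These were 3 of 8 ventricular cardiomyocyte genes and 4 of 26 genes of calcium handling and channels. They were also 4 of 20 cardiac transcription factors and natriuretic peptides and 4 of 18 clock genes. The summed level of fibroblast markers was 2512 and 2695 CPM in set 1 controls, 1348 and 1326 in set 2 controls, 1505 and 1550 in set 1 simvastatin libraries and 1668 and 1594 in set 2 simvastatin libraries. Col1a1 read 960 and 1223 against 493 and 508 CPM in controls, and 638 and 575 against 686 and 525 in simvastatin libraries. Wt1, a marker of epicardium, read 12.2 and 13.3 against 7.28 and 8.61 in controls, and 2.43 and 2.74 against 2.19 and 3.16 in simvastatin libraries. The part of mesenchymal cell number in the other gene differences was not tested.

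A few matrix genes kept 1 direction in both treatments, though for some the size differed between treatments. Eln (elastin) read 65.8 and 78.4 against 33.4 and 37.0 CPM in controls and 87.4 and 83.9 against 71.4 and 57.9 in simvastatin libraries. Dcn (decorin) was lower by 0.47 on the log2 scale, and Mmp14, a membrane-bound matrix protease, by 0.75 with no overlap. Basement membrane genes went the other way: Nid2 (nidogen 2) was higher by 0.55 ± 0.12 SE, Col4a5 by 0.53 ± 0.14 SE and Col4a6 by 0.52 ± 0.12 SE, all with no overlap.

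**Figure D5:**
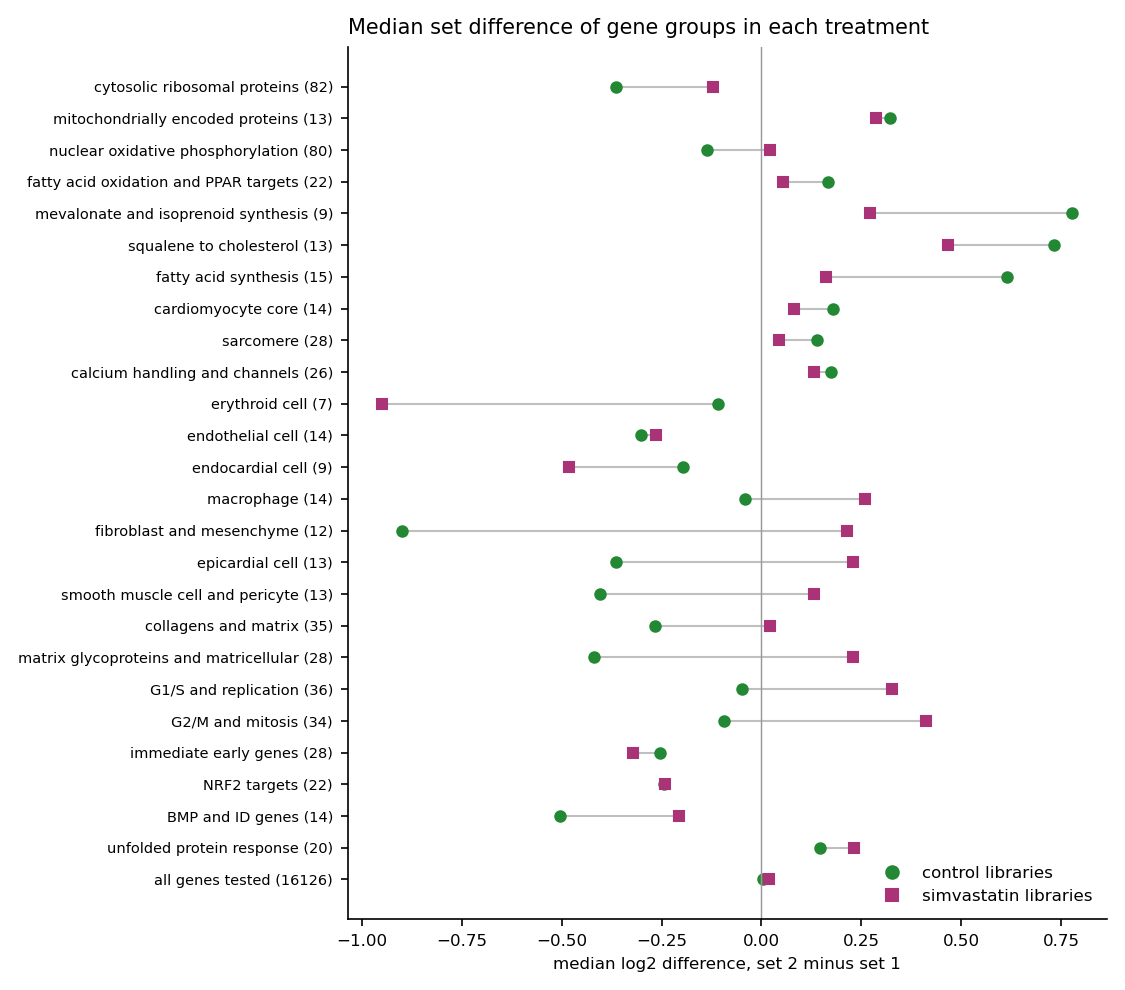
The median log2 difference, set 2 minus set 1 (horizontal axis), of 25 gene groups and of all genes tested, with the number of tested genes in parentheses, is shown for control libraries (circles) and simvastatin libraries (squares). Sterol and fatty acid synthesis lie right of 0, and endothelial, NRF2, immediate early and ribosomal protein genes left of 0, in both treatments. Fibroblast, epicardial, smooth muscle and matrix groups lie left of 0 in controls and right of it in simvastatin libraries.

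Cell cycle genes had different medians in the 2 treatments, and 0 of them passed the adjusted interaction threshold. Over 34 genes of G2/M and mitosis the median set difference was -0.09 in controls and 0.41 in simvastatin libraries, and 18 had an interaction p under 0.05 before adjustment, 17 of them above 0 (background above 0 4.32%). Over 36 genes of G1/S and replication the medians were -0.05 and 0.33, and 12 had an interaction p under 0.05, all above 0. Mki67, a proliferation marker, read 54.9 and 57.0 against 45.2 and 63.0 CPM in controls, and 14.5 and 16.8 against 18.4 and 14.4 in simvastatin libraries. The sets overlapped in both treatments, and its interaction was 0.12 ± 0.27 SE. Tk1, a thymidine kinase expressed in S phase, was lower in set 2 by 0.39 on the log2 scale with no overlap, at 58.1 and 68.0 against 47.6 and 48.1 CPM in controls.

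Markers of embryo sex checked the pooling. Xist, the X-inactivation RNA of female cells, was present in all 8 libraries at 15.9 to 34.1 CPM, and Ddx3y, on the Y chromosome, at 25.6 to 43.7 CPM. Each library therefore held RNA of both sexes. Exons of Xist overlap those of Tsix on the opposite strand, and no source states whether counting used strand, so its level is uncertain. Uty, also on the Y chromosome, read 15.5 and 9.33 against 18.3 and 17.7 CPM in controls and 10.7 and 13.8 against 17.1 and 16.7 in simvastatin libraries, with no overlap. For Ddx3y the sets overlapped in controls, at 43.4 and 27.4 against 38.4 and 34.6 CPM. In simvastatin libraries Ddx3y read 25.6 and 38.0 against 43.7 and 42.9 CPM (log2 difference over all libraries 0.25 ± 0.18 SE). The share of male cells was not tested as a source of any difference above.

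Among structural RNAs, 4 of 14 listed passed the filter on low counts, with a median of -0.75. Rn7sk, the RNA that restrains elongation factor P-TEFb, read 1.08 and 2.98 against 1.98 and 0.809 CPM in controls, where the sets overlapped. In the simvastatin libraries it read 35.2 and 32.4 against 7.23 and 10.8 CPM (log2 difference -1.89, edgeR adjusted p = 0.000476 in those libraries alone). Rpph1, the RNA of ribonuclease P, was lower in set 2 by 1.56 on the log2 scale at 0.194 to 2.03 CPM.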

How the data were processed

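Each deposited file holds raw gene counts with exon positions and lengths, per the file headers. The submitters' processing notes name Trimmomatic 0.36, STAR 2.5.2b, Subread 1.5.2 and featureCounts, with the builds GRCm38 and mm10. No source used here states the strand setting or annotation release. The set of each library was read from its count column's header. Symbols, exon GC content and overlaps came from GENCODE's GRCm38 annotation, which matched 99.5% of 49315 identifiers, with 91.0% at the same positions.

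Of 32927 genes with any count, filterByExpr on set kept 16126. Treatment and set were the model terms in edgeR (version 4.0.16, R version 4.3.3), tested by quasi-likelihood F test, two-sided, with Benjamini-Hochberg adjustment and a threshold of 0.05. TMM factors ran from 0.963 to 1.04 and also scaled the CPM. The biological coefficient of variation was 20.4%. Library measures were compared by exact permutation within treatment. DESeq2 1.42.0 and limma-voom 3.58.1 were alternatives, beside other scalings, filters, offsets, blocks and left-out libraries. The edgeR step was tested on simulated data. The rule for named genes took the 12 largest differences in each direction that passed (none did), the smallest p-values of each of 73 lists (at most 4 a list), the 6 smallest p of the interaction and 14 genes given by name. The comparison, the lists and these genes were chosen with earlier results of these data known. Some genes that this rule names are not reported here.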

Additional observations from a re-analysis of the deposited data

Results flagged for a closer look

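In groups of 4 libraries of 1 treatment, a library was noted when its gap to the nearest other library was too large a part of the group's range by Dixon's 95% critical value. This was so in 7 of 250 groups of values looked at. For unselected groups chance alone gives about 5%, or 12.5. Many of these groups were genes chosen for a set difference, and all share the same libraries. The count therefore cannot be judged against that rate. Control replicate 2 stood above the other controls in 5 sterol and lipid synthesis genes. Its level was 623 CPM against 304 to 316 for Acly and 624 against 205 to 236 for Cyp51. It was 1203 against 257 to 377 for Hmgcs1, 196 against 40.5 to 60.04 for Idi1 and 753 against 259 to 277 for Msmo1. For Pecam1 control replicate 3 was the low library (41.4 CPM), with the remaining controls between 58.2 and 60.7 CPM. The total of simvastatin replicate 2 was 34993255 counts, against 30474586 to 30877106 in the other simvastatin libraries.

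The set difference depended on treatment for 9 genes by the interaction test, on the log2 scale: Col3a1 at 1.52, Col8a1 at 2.16, Ccl7 at 2.02, Col1a2 at 1.38, Anxa1 at 1.55, Tcf21 at 2.44, Ccl2 at 2.04, Acta2 at 1.21 and Steap4 at 2.94.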

How the results depend on the processing

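With 4 libraries a side, calls moved with the model and with single libraries, and the cause of each move was not tested. Against 0 genes by edgeR, DESeq2's Wald test called 523, no filter on low counts 1045 (1028 of which pass the filter), the simvastatin libraries alone 802, and the fit without control replicates 1 and 2 (chosen after seeing the data) 2. Leaving out single libraries gave 0 to 853. Replicate numbers gave no clear pairing. Deviations of same-numbered libraries from the treatment mean correlated at -0.199, 0.051, 0.156 and -0.21, and 0 of 4 controls correlated best with their own number. These deviations still hold the set difference. Deviations from the mean of treatment and set correlated at -0.049 in set 1 and -0.184 in set 2. With 2 libraries per treatment and set, this check cannot decide whether same-numbered libraries shared a preparation. With the number as a replicate block, 1750 genes passed as a random block (consensus correlation -0.377), 983 with same-numbered libraries added and 7 with crossed numbers added (chosen after seeing the data). The 2835 genes at an unadjusted p under 0.05 became 1591 with no treatment term, 4791 with the random block, 4474 with libraries added, 1762 to 4178 without single libraries and 1067 to 2847 without whole replicate numbers. The 9 interaction genes became 530 with DESeq2, 981 with no filter, 313 with the number as a fixed replicate block, and 0 to 1213 without single libraries. All 9 were among the calls of DESeq2 and of the fixed block, and 8 among those of limma-voom. Most calls of the wider fits lay below 0: 380 of 530 with DESeq2, 742 of 981 with no filter and 279 of 313 with the fixed block. Summed marker levels did not overlap for 5 to 10 lists (7 as reported).

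Of 105 genes named for a set difference, 97 kept their direction under all 30 alternatives, and the 8 others lay near 0 or differed by treatment. Myh7 was -0.0397 with library totals alone, -0.0196 with limma-voom, -0.201 with no treatment term, -0.526 in simvastatin libraries, -0.0149 with the random block, -0.138 with libraries added, -0.134 with crossed numbers, -0.165 without control replicates 1 and 2, -0.0352 with the length offset and -0.158 to 0.156 without single libraries or numbers. Mki67 was -0.0329 with library totals alone, -0.0195 with limma-voom, -0.0209 with no treatment term, -0.04 in control libraries, -0.0158 with the random block, -0.0443 with libraries added, -0.0508 with crossed numbers, -0.0521 with the length offset, -0.0171 with the GC offset and -0.0809 to 0.121 without single libraries or numbers. Nppb was -0.0378 with library totals alone, -0.0013 with limma-voom, -0.0486 with no treatment term, -0.114 in control libraries, -0.0688 with libraries added, -0.0588 with crossed numbers and -0.0867 to 0.108 without single libraries or numbers. Tnnt2 was 0.0107 with no filter, 0.0548 in control libraries, 0.0091 with libraries added, 0.0124 with crossed numbers, 0.0178 with the GC offset and -0.0584 to 0.0226 without single libraries or numbers. Pecam1 was 0.208 in control libraries and -0.257 to 0.0104 without single libraries or numbers. Col1a1 was 0.0207 in simvastatin libraries. Wt1 was 0.0697 in simvastatin libraries. Xist was 0.0258 in simvastatin libraries, 0.14 without control replicates 1 and 2 and -0.431 to 0.0835 without single libraries or numbers. The fibroblast median was 0.21 in simvastatin libraries, and the erythroid one 0.67 without globins, from 1 gene.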
